A study of Homo sapiens with 4 samples.

Results

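The cyclin, cyclin-dependent kinase (CDK) and CDK inhibitor genes described here are CCNA1, CCND1, CCND2, CCND3, CCNE1, CCNE2, CDK4, CDK6, CDKN2A and CDKN1B, 10 genes picked by name from a table of 17755 genes. The table lists 9 of them; CCND2 has no row and is not analysed here. CCNA1 was chosen by its measured values: the study's screen found it lower after LINC00622 knockdown in both cell lines, and the other genes were set beside it by name. The knockdown values of these genes are therefore given as a description, without a test. The RNA came from A375 and SK-MEL-28, both established lines of human melanoma, so that each stands for 1 cell line only, although the labels call the source melanoma tissue. Cells at about 70% confluency were treated with a control siRNA (siNC) or with siRNA against the long non-coding RNA LINC00622 (siLINC00622). They were kept for 6 h in DMEM without serum and then for 24 h in DMEM with 10% serum, and this regime was shared by all groups. The 4 libraries of poly(A) RNA, 1 for each line and treatment, were sequenced once each, so within a line the knockdown has no replicate check. The question was how far the lower CCNA1 level after LINC00622 silencing is shared by the other genes of the same machinery, and whether the lines differ in it.

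Cyclins are the regulatory subunits that switch on CDKs. D-type cyclins with CDK4 and CDK6, and then E-type cyclins with CDK2, phosphorylate the retinoblastoma protein RB, which releases E2F transcription factors and starts the genes of DNA synthesis. A-type cyclins act with CDK2 and CDK1 later in the cycle; cyclin A2 is the form of dividing somatic cells, whereas cyclin A1, the product of CCNA1, is known mainly from male germ cells and some leukaemias. Inhibitors of the INK4 type, such as p16 from CDKN2A, bind CDK4 and CDK6, and inhibitors of the CIP/KIP type, such as p27 from CDKN1B, act on cyclin-CDK complexes. Cyclin D1 and loss of p16 are well known in melanoma.

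The sequences that frame these values are the siRNA targets and the promoters of CCNA1 and 2 genes set against it. The study lists 2 siRNAs against LINC00622 and does not say which was used for sequencing. Both targets lie in LINC00622, which is transcribed from the minus strand, at GRCh38 positions chr1:119598699-119598717 (bases 555 to 573 of the 1570-base transcript) and chr1:119598439-119598457 (bases 815 to 833). They are shown 5′ to 3′ in the sense of the transcript. The capitals are the 7 bases that pair with positions 2 to 8 of the guide strand, the seed through which an siRNA can also act on other transcripts.
siLINC00622_1: ccctaaagaaaGTGAGAAa
siLINC00622_2: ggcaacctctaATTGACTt
In the longest annotated 3′ UTR of each gene (GENCODE 29), the capitalised word of siLINC00622_1 occurred in 14.5% and that of siLINC00622_2 in 11.6% of 12365 listed genes. CCND1 held 2 copies of the first word, at chr11:69652869-69652875 and chr11:69653615-69653621 of GRCh38. CDK6 held 1 copy of the second word, at chr7:92608188-92608194. CCNA1, CCNE2, CCND3, CCNE1, CDK4, CDKN2A and CDKN1B held neither word in that UTR. A match of letters is a description only, and whether seed pairing had a part in any value below was not tested.

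The promoter windows are the 300 bases around the annotated start in RefSeq (GRCh38.p14). This is a different build from hg19, which the submitters' processing notes name, so the positions serve to place the sequences only. Of the 10 genes, 7 have a window in that table. CCNA1 is shown because its level was chosen for study, CCNE1 as a cyclin that stayed near its control level, and E2F2 as the one gene of the cell cycle lists below that the paired test called. The windows are CCNA1 chr13:36431705-36432004 on the plus strand, CCNE1 chr19:29811741-29812040 on the plus strand and E2F2 chr1:23531184-23531483 on the minus strand. Capitals mark GC boxes (GGGCGG on either strand) in the first 2 sequences and an E2F word (TTTGGCGC) in the third.
CCNA1: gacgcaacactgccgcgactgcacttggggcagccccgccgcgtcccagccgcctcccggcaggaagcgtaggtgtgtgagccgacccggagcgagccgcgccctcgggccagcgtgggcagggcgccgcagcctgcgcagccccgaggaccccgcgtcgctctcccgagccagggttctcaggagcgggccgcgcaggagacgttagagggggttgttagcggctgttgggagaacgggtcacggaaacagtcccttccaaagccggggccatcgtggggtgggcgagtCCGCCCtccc
CCNE1: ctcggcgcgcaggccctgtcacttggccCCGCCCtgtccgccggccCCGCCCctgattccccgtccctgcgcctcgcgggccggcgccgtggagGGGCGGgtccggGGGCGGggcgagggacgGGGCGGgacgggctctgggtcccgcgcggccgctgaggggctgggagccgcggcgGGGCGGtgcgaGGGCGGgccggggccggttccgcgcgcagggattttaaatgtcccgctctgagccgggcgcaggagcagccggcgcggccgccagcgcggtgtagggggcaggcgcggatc
E2F2: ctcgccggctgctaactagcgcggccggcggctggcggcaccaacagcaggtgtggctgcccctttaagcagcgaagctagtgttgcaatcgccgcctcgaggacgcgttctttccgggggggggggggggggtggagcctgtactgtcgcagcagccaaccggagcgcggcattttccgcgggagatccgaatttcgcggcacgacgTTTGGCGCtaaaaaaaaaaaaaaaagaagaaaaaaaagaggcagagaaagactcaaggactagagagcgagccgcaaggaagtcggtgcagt
The windows of CCNA1, CCNE1 and E2F2 held 72.7%, 81.0% and 59.7% G and C, where the median of 35116 promoter windows was 58.7%. The 2 cyclin windows held 1 and 7 GC boxes, and 45.0% of all windows held at least 1. An E2F word (TTTGGCGC, TTTCCCGC, TTTGCCGC or TTTCGCGC, either strand) occurred in 3.31% of all windows, once in E2F2 and in no window of the 7 genes. A CCAAT box (CCAAT, either strand) occurred in 34.6% of all windows and in none of these 3. A CHR word (TTTGAA or TTCGAA, either strand), which occurred in 16.4% of all windows, was likewise in none of these 3.

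The libraries held between 31269923 and 36384819 counts, and between 99.7% and 99.8% of these fell on listed genes. LINC00622, the targeted gene, had 309 counts with siNC and 135 after silencing in SK-MEL-28 cells, and 135 and 86 in A375 cells. RRAGD, the gene the study follows, had 3313 and 731 counts in SK-MEL-28, against 515 and 234 in A375. Pairs of values are given as siNC and then siLINC00622 throughout, and both genes were lower with siLINC00622 in each line. The log2 ratio of siLINC00622 over siNC for LINC00622 was -1.21 (95% Clopper-Pearson interval -1.53 to -0.93) in SK-MEL-28 and -0.84 (-1.27 to -0.46) in A375, and for RRAGD it was -2.21 and -1.34. These ratios were made from counts scaled by the TMM method of edgeR with a prior count of 2, and the intervals cover counting error only. All 8 melanocyte markers were listed, with a summed level between 2060 and 2210 FPKM (fragments per kilobase of transcript, scaled to library size) in SK-MEL-28 and between 133 and 166 in A375. Most of the A375 sum was SOX10, at 118 and 149 FPKM, and each other marker was at 8.40 FPKM or less there. TYR had only 17 and 22 counts in A375, and TYRP1 13 and 6. Of the markers of other cells, 2 of 6 for keratinocytes, 2 of 6 for fibroblasts and 1 of 5 for leukocytes had a row, with summed levels between 19.1 and 32.4, between 4.10 and 9.80 and between 0.158 and 2.32 FPKM. Among the absent ones were KRT5, COL1A1 and PTPRC. In bulk RNA, fewer cells with a transcript and less of it per cell cannot be told apart.

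CCNA1 (ENSG00000133101) was well below its control level after LINC00622 silencing, in both lines. Its level in SK-MEL-28 cells was 2.36 FPKM with siNC and 0.754 FPKM with siLINC00622, from 176 and 58 counts. In A375 it was 1.69 and 0.635 FPKM, from 119 and 52 counts. Both siNC libraries were above both siLINC00622 libraries, and both lines were low expressers of this gene. The scaled count in SK-MEL-28 was 33.0% of siNC, which is -1.60 on the log2 scale (interval -2.09 to -1.20). In A375 it was 38.7% of siNC, or -1.37 on the log2 scale (interval -1.90 to -0.92). By this ratio, CCNA1 ranked 50 from the bottom among the 15442 genes of SK-MEL-28 that had at least 10 counts, and 43 from the bottom among the 16021 genes of A375. CCNA1 was chosen for being lower in this same contrast, so a low rank came with that choice. The ratio in SK-MEL-28 was lower than that in A375 by a difference of -0.23 with an interval of -0.87 to 0.40, so a difference between the lines was not detectable at these counts. With deposited FPKM and a pseudocount of 1, a scale that shrinks changes of low genes, the log2 ratios of CCNA1 were -0.94 and -0.72.

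CCNA2, which encodes the somatic cyclin A2, did not share the size of this change. It had 3313 counts in siNC and 3546 in siLINC00622 of SK-MEL-28, and 4754 and 4204 in A375. The log2 ratio was 0.07 (interval 0.00 to 0.14) and -0.39 (interval -0.45 to -0.33). CCNA1 made up 6.09% of the summed FPKM of both A-type cyclins in SK-MEL-28 with siNC and 1.96% with siLINC00622. The same share was 2.97% and 1.49% in A375. The summed level of the pair was 38.8 and 38.5 FPKM in SK-MEL-28 cells, and 57.0 and 42.7 FPKM in A375 cells, nearly all of it CCNA2.

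**Figure D1:**
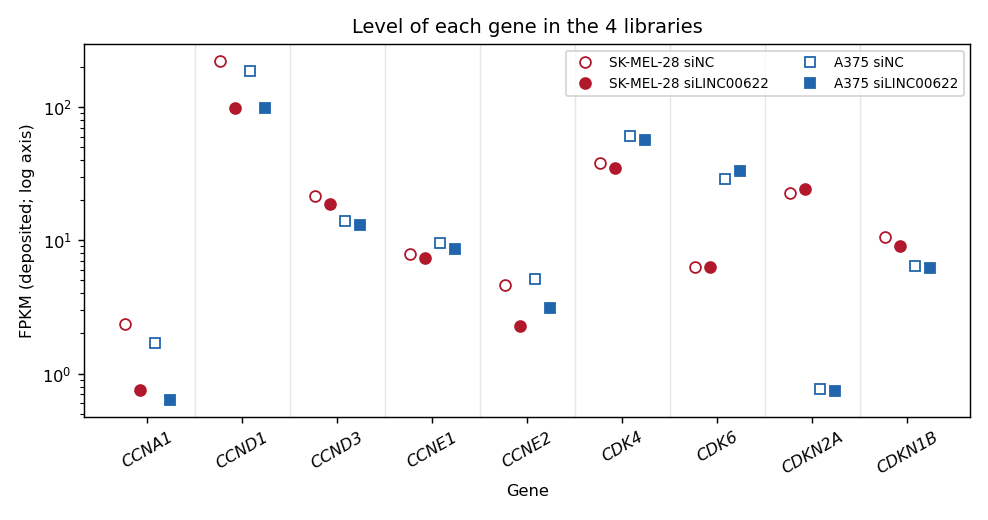
Level of the 9 listed genes (FPKM, log axis) in each library; red circles are SK-MEL-28, blue squares A375, open symbols siNC and filled symbols siLINC00622, with 1 library a symbol and no error bar. CCNA1, CCND1 and CCNE2 have both filled symbols below both open ones, and CDKN2A lies at 22.6 and 24.1 FPKM in SK-MEL-28 against 0.766 and 0.736 FPKM in A375.

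Of the D-type cyclins, CCND1 was lower in the knockdown libraries and CCND3 was near its control level. CCND1 (ENSG00000110092), which encodes cyclin D1, was at 222 FPKM with siNC and 98.7 FPKM with siLINC00622 in SK-MEL-28. It was at 185 and 97.9 FPKM in A375. The control libraries were the high ones in both lines, and the knockdown libraries of the lines lay close to each other. Counts of 35045 and 16060 stand behind these levels in SK-MEL-28, and their log2 ratio was -1.16 (interval -1.18 to -1.13). Counts of 27575 and 16963 in A375 gave -0.91 (interval -0.94 to -0.88). By counting error alone the ratio was lower in SK-MEL-28 by -0.25 (interval -0.29 to -0.21), but with 1 library per condition this cannot be set against the spread between cultures. CCND3 (ENSG00000112576), cyclin D3, had 4108 and 3685 counts in SK-MEL-28 cells, at 21.5 and 18.7 FPKM. In A375 cells it had 2516 and 2729 counts, at a mean of 13.5 FPKM. Its log2 ratios were -0.19 (interval -0.25 to -0.12) and -0.09 (interval -0.17 to -0.01). Of the summed FPKM of the 2 listed D-type cyclins, CCND1 took 91.2% with siNC and 84.1% after silencing in SK-MEL-28 cells, and 93.0% and 88.3% in A375 cells. The sum itself went from 244 to 117 FPKM in SK-MEL-28 and from 199 to 111 FPKM in A375, and CCND1 stayed the main D-type transcript in all 4 libraries.

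The E-type cyclins, which activate CDK2 at the start of S phase, were split in the same way. CCNE2 (ENSG00000175305) had 675 counts with siNC and 339 after silencing in SK-MEL-28, at 4.64 and 2.26 FPKM. In A375 it had 711 and 499 counts, at 5.17 and 3.12 FPKM. Both knockdown libraries were below both controls. The log2 ratio was -1.02 (interval -1.22 to -0.83) in SK-MEL-28 and -0.72 (interval -0.89 to -0.55) in A375, a difference of -0.30 (interval -0.55 to -0.05) by counting error alone. CCNE1 (ENSG00000105173) was at 7.87 and 7.40 FPKM in SK-MEL-28 cells, and at 9.60 and 8.63 FPKM in A375 cells. Its log2 ratios were -0.07 (interval -0.24 to 0.09) and -0.14 (interval -0.29 to 0.00). The share of CCNE2 in the summed FPKM of both E-type cyclins was 37.1% with siNC and 23.4% after silencing in SK-MEL-28 cells, and 35.0% and 26.5% in A375 cells.

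The kinases of the D-type cyclins stayed near their control levels. CDK4 (ENSG00000135446) had 3924 and 3687 counts in SK-MEL-28, against 5914 and 6345 in A375, at 38.3, 34.9, 61.1 and 56.4 FPKM. Its log2 ratios were -0.12 (interval -0.19 to -0.06) and -0.11 (interval -0.16 to -0.06). CDK6 (ENSG00000105810) had 2573 and 2660 counts in SK-MEL-28, against 11121 and 14751 in A375, at 6.35, 6.36, 29.1 and 33.1 FPKM. Here the lines were far apart and the treatments close together. The log2 ratio of CDK6 was 0.02 (interval -0.06 to 0.10) in SK-MEL-28 and 0.20 (interval 0.16 to 0.23) in A375, where it was the highest of the set.

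Neither inhibitor gene of the set was past 1.5-fold with LINC00622 silencing. CDKN2A (ENSG00000147889), whose counts cannot separate its products p16INK4a and p14ARF, had 2902 and 3193 counts in SK-MEL-28, against 93 and 104 in A375. The level was 22.6 and 24.1 FPKM in SK-MEL-28 and 0.766 and 0.736 FPKM in A375. The 2 lines did not overlap, and within each the libraries were near each other. The log2 ratio was 0.11 (interval 0.03 to 0.18) in SK-MEL-28 and -0.05 (interval -0.47 to 0.37) in A375, and the latter is wide because the gene has few counts there. CDKN1B (ENSG00000111276), which encodes p27, had 3246 and 2872 counts in SK-MEL-28, against 1856 and 2087 in A375, at 10.6, 9.08, 6.41 and 6.20 FPKM. Its log2 ratios were -0.21 (interval -0.28 to -0.14) and -0.04 (interval -0.13 to 0.05).

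**Figure D2:**
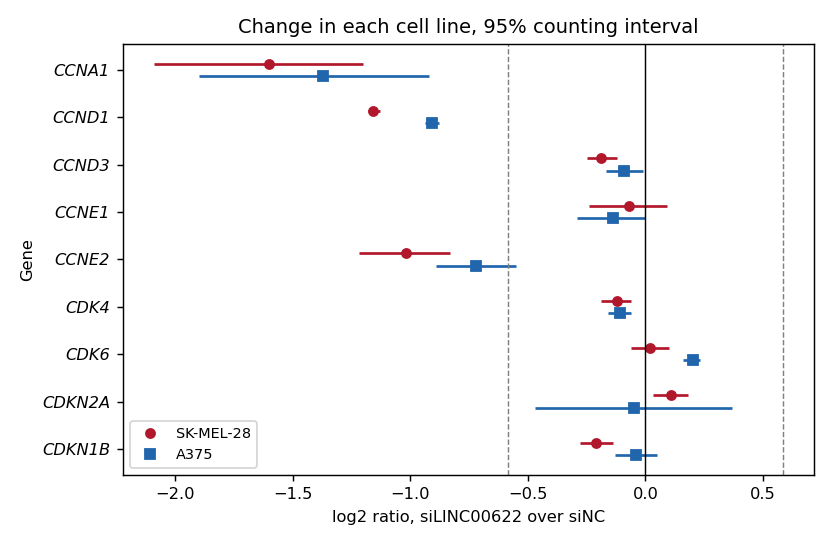
Log2 ratio of siLINC00622 over siNC for the 9 listed genes in SK-MEL-28 (red circles) and A375 (blue squares); lines are 95% Clopper-Pearson intervals, which cover counting error only, and dashed lines mark a change of 1.5-fold. CCNA1, CCND1 and CCNE2 lie beyond the lower dashed line in both lines, and the other 6 genes lie between the dashed lines.

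Over the set, 3 of the 9 listed genes were lower by more than 1.5-fold in SK-MEL-28 and 3 of 9 in A375, and these were CCNA1, CCND1 and CCNE2 in both; 0 of 9 were higher. In A375, CCNA1 alone was lower by more than 2-fold, and with deposited FPKM and a pseudocount of 1 CCNE2 was at -0.58, just short of 1.5-fold. All 9 passed the minimum of 10 counts in each line. The same threshold was passed downward by 6.49% and upward by 4.56% of all genes with at least 10 counts in SK-MEL-28, and by 4.34% and 4.52% in A375. In both lines at once, 1.09% of 14721 genes were lower by more than 1.5-fold. CCNA1 entered the set through this very contrast, so its place in these counts says nothing further. The other genes were set beside it by name, but with earlier results of these data known. The counts of the set are therefore a description and no separate support. The median log2 ratio of the set, CCNA1 included, was -0.19 for SK-MEL-28 and -0.11 for A375, where all genes had a median of 0.00 in either line. By level, CCND1 was first and CDK4 second in each library on the FPKM scale. CCNA1 was last in 3 libraries and CDKN2A was last in A375 with siNC. With 1 library per condition, neighbours in this order could not be compared beyond their spread.

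The genes that work with this set were counted in lists, and the knockdown was tested on them in a fit over both lines. This test was edgeR's quasi-likelihood test with the line as a term, so that the 2 lines serve as 2 pairs, and p-values were adjusted by Benjamini-Hochberg over 16258 genes. It called 24 genes lower (0.148%) and 13 higher (0.08%), and 2374 (14.6%) had an unadjusted p under 0.05; LINC00622 itself had an adjusted p of 0.113 in this edgeR test. The choice of scaling, filter and tool moved these counts from 0 to 158. Fits without 1 library also drop the line term, which leaves the difference between the lines in the spread, so they cannot judge the calls. With DESeq2 size factors in edgeR, 1 gene was called higher and 0 lower, so none of the lower calls stands across the alternatives. DESeq2 gave no adjusted p to some genes of the lists, and its calls are counted among those that had one. Over all 17755 genes, not all with an adjusted p, its Wald test called 158 lower and 144 higher. The list counts below are to be read against these calls and, for an unadjusted p in edgeR, against the 14.6%.

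Of 26 other cyclins, 21 were listed, and none was lower by over 1.5-fold in either line. CNTD1 was the only one past 1.5-fold upward, in SK-MEL-28, with 28 and 51 counts there and 56 and 51 in A375. The median log2 ratios of the list were 0.02 and -0.06 for SK-MEL-28 and A375. The paired test called 0 of 21, and 3 had an unadjusted p under 0.05, a share like that of all genes. One of them, CCNB1, the cyclin of mitotic CDK1, had 10977 and 7981 counts in SK-MEL-28, against 9785 and 8528 in A375. Its fitted log2 change was -0.44 with an adjusted p of 0.113 in edgeR's quasi-likelihood test, and DESeq2 called it as the only one of 19. CNTD1 and CCNB1, and RRM2, MCM10, MCM7, PKMYT1, FBXW7, USP2, CDC20 and TFDP1 below, were named after their values were seen.

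Among 19 other CDK genes, 16 were listed. The paired edgeR test called 0 of 16, with 4 at an unadjusted p under 0.05, and DESeq2 called 0 of 14. CDK1, the mitotic kinase, had 3713 and 2981 counts in SK-MEL-28, against 4801 and 4154 in A375, with log2 ratios of -0.35 and -0.42 and an adjusted p of 0.139 in the paired quasi-likelihood test. CDK2, the partner of cyclins E and A, had 8220 and 11505 counts in SK-MEL-28, against 2893 and 2987 in A375. Its log2 ratio was 0.45 (interval 0.41 to 0.49) in the first line and -0.16 (interval -0.24 to -0.09) in the second. CDK14 had 91 and 124 counts in SK-MEL-28, against 892 and 1811 in A375, where its log2 ratio of 0.81 was the only one of the list past 1.5-fold. The 8 partners of cyclin A1, with CDK1, CDK2, RB1 and E2F1 among them, included 0 past 1.5-fold in either line, with medians of -0.24 and -0.23. The paired edgeR test called 0 of these 8, with 3 at an unadjusted p under 0.05, and DESeq2 called 0 of 6.

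The 5 other CDK inhibitor genes were all listed. The paired edgeR test called 0 of 5, with CDKN1A as the only one at an unadjusted p under 0.05, and DESeq2 called 0 of 3, CDKN1C being without an adjusted p. CDKN1C, which encodes p57, had 108 counts with siNC and 39 after silencing in SK-MEL-28, a log2 ratio of -1.45. In A375 it had 323 and 551 counts, a log2 ratio of 0.56. The direction was thus opposite in the lines. CDKN1A, which encodes p21, had 241 and 254 counts in SK-MEL-28, against 4791 and 8029 in A375, with log2 ratios of 0.04 (interval -0.22 to 0.30) and 0.54 (interval 0.48 to 0.59). CDKN2B had 599 and 626 counts in SK-MEL-28, a log2 ratio of 0.03, and only 7 and 4 in A375, under the minimum for a ratio there.

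In the list of RB and E2F genes, all 19 were listed, and E2F2 and E2F8 were lower by over 1.5-fold in both lines, as were 1.09% of 14721 genes. The paired edgeR test called 1 of the 19, with 4 at an unadjusted p under 0.05, where 14.6% of all genes were. E2F2, an activating E2F whose promoter is shown above, had 1013 counts with siNC and 524 after silencing in SK-MEL-28, against 779 and 483 in A375. Both knockdown libraries were below both controls, with log2 ratios of -0.98 (interval -1.14 to -0.83) and -0.90 (interval -1.07 to -0.73). E2F2 fell in the paired fit by 0.93 on the log2 scale, with an adjusted p of 0.0493 in edgeR's quasi-likelihood test. The call was lost with DESeq2 size factors in edgeR (adjusted p 0.0789). Among alternatives that kept the line term, the adjusted p ran from 0.00259, with the DESeq2 Wald test, to that value. Fits without the line term or without any 1 library leave the difference between the lines in the spread, so they cannot judge the call. Without 1 library the fitted changes were -1.15 to -0.69. E2F8, a repressive E2F, had 582 and 336 counts in SK-MEL-28, against 501 and 321 in A375, with log2 ratios of -0.82 and -0.85. Its adjusted p was 0.0824 in edgeR's quasi-likelihood test, and 0.0455 there with no filter on low counts. E2F1 had 1659 and 1446 counts in SK-MEL-28, against 2347 and 1995 in A375 (log2 ratios -0.23 and -0.44), and RB1 had 3038, 2755, 4171 and 4434 in the same order (-0.17 and -0.12). DESeq2 called E2F2 and TFDP1, a dimer partner of E2Fs, as lower among 15 genes of the list, and gave E2F8 no adjusted p.

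The S-phase genes that E2Fs control had small log2 ratios, nearly all below 0. Of 24 such genes, all listed, 23 had a log2 ratio below 0 in SK-MEL-28, 24 in A375 and 23 in both, where 31.3% of all genes were below 0 in both. The medians were -0.25 and -0.39. None was lower by over 1.5-fold in SK-MEL-28, and RRM2 and MCM10 were in A375. RRM2, a subunit of ribonucleotide reductase, had 15249 and 10791 counts in SK-MEL-28, against 17874 and 12736 in A375, with log2 ratios of -0.53 and -0.70. The paired edgeR test called 0 of the 24, with 19 at an unadjusted p under 0.05 where 14.6% of all genes were, and RRM2 came nearest with an adjusted p of 0.0577 by Benjamini-Hochberg in edgeR. DESeq2 called MCM7, MCM10 and RRM2 as lower, of 24. The lists share the 4 libraries with each other and with the set, so they are not separate evidence.

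**Figure D3:**
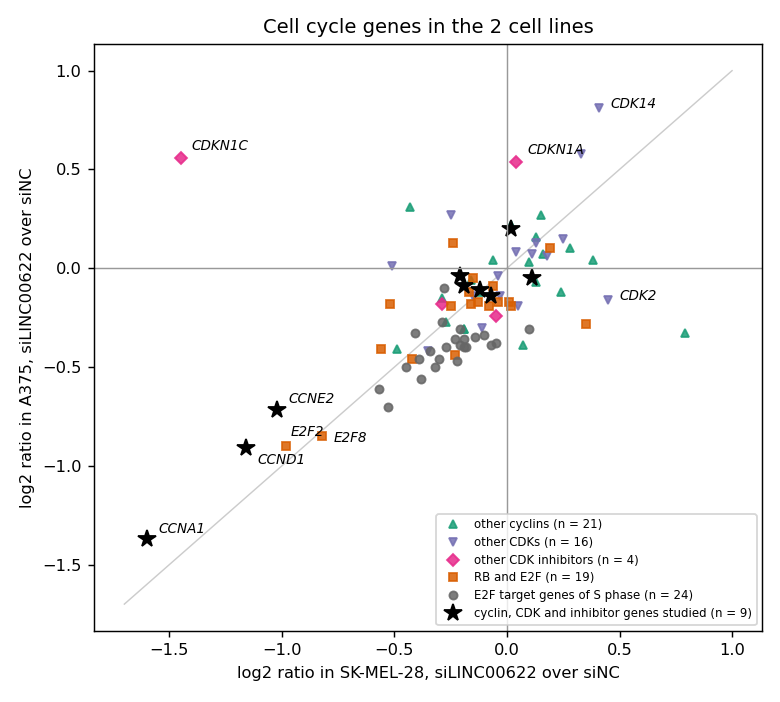
Log2 ratio of siLINC00622 over siNC in SK-MEL-28 (horizontal) against A375 (vertical), 1 symbol a gene that reached 10 counts in each line; stars are the 9 genes of the set and other symbols the lists (n in the key), and the grey diagonal marks equal ratios. CCNA1, CCND1 and CCNE2 lie at the lower left with E2F2 and E2F8, the S-phase genes form a group just below 0 in both lines, and CDKN1C stands alone at -1.45 and 0.56.

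Regulators of CDK activity and of cyclin breakdown were counted in further lists. Of all genes with at least 10 counts, A375 had 4.34% lower and 4.52% higher by over 1.5-fold. The shares for SK-MEL-28 were 6.49% lower and 4.56% higher. The counts of these short lists were not tested against such shares. Of 9 genes of CDK activation, PKMYT1, an inhibitory kinase of CDK1, was the only one past 1.5-fold, in A375, with 2122 and 1512 counts there and 2224 and 2035 in SK-MEL-28. The list had 0 calls in the paired edgeR test, with 3 genes at an unadjusted p under 0.05, and DESeq2 called 0 of 8. Of 15 genes of cyclin and inhibitor breakdown, 2 were past 1.5-fold in SK-MEL-28 and 0 in A375. FBXW7, the ubiquitin ligase subunit that recognises cyclin E, had 393 and 635 counts in SK-MEL-28, against 569 and 875 in A375, with log2 ratios of 0.66 and 0.41. USP2, a deubiquitinase of cyclin D1, was lower in SK-MEL-28 at low counts, 44 and 21, against 51 and 43 in A375. The paired edgeR test called 0 of the 15, with 3 at an unadjusted p under 0.05, and DESeq2 called CDC20 as lower, of 13.

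The lines themselves were compared over both treatments by edgeR's quasi-likelihood test with treatment as a term, with 2 libraries per line and Benjamini-Hochberg adjustment over 16258 genes. This contrast was not used to choose the genes. It called 4 of the 9 genes higher in SK-MEL-28 and 2 of 9 lower, where 33.8% of all genes were called higher and 35.1% lower, so the counts of the set lie near the background. The 2 libraries of a line differ in treatment and are not stated to be repeated cultures, so the p-values measure only the spread left between these 4 libraries, which may be technical.

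CDKN2A differed most among the 9 genes, at a mean of 23.3 FPKM in SK-MEL-28 against 0.751 FPKM, a log2 difference of 5.12 (adjusted p 6.25e-07 in edgeR's quasi-likelihood test). Mean FPKM values here are scaled by library totals and the log2 differences by TMM, so one does not give the other exactly. CDK6 was lower in SK-MEL-28, at 6.36 against 31.1 FPKM, a log2 difference of -2.12 (adjusted p 4.87e-06 in the same edgeR test). CDKN1B, at 9.84 against 6.31 FPKM, was higher by 0.80 (adjusted p 3.93e-04, edgeR). These values held with each library left out in turn, when CDKN2A ran from 5.06 to 5.19, CDK6 from -2.23 to -2.01 and CDKN1B from 0.72 to 0.90. CCND3, at 20.1 against 13.5 FPKM, was higher by 0.74 (adjusted p 4.02e-04, edgeR), and CDK4, at 36.6 against 58.7 FPKM, was lower by -0.52 (adjusted p 1.57e-03, edgeR). SK-MEL-28 thus had more of the inhibitors CDKN2A and CDKN1B and of CCND3, and A375 had more of both kinases. All 8 melanocyte markers were also higher in SK-MEL-28 in this test, and their part in the differences was not tested.

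For the 3 genes with the lower knockdown values, the line differences are given beside those of the siNC libraries alone, which were scaled by library totals and not tested. The fit used TMM scaling over all 4 libraries, so the 2 values are on unlike scales and their closeness cannot be read as agreement. CDK4, with like knockdown ratios in both lines, was at -0.52 in the fit and at -0.67 in the siNC libraries alone. CCND1 was called higher in SK-MEL-28 by 0.30 (adjusted p 0.0215, edgeR quasi-likelihood), and the siNC libraries alone gave 0.26. Fits without 1 library drop the treatment term, so they compare unequal mixtures of treatments, and a gene whose level differs between treatments must shift in them. Without the siNC library of SK-MEL-28 the log2 difference of CCND1 was -0.33 (adjusted p 0.239, edgeR), without the siLINC00622 library of A375 it was -0.03 (0.963), without the siNC library of A375 it was 0.86 (0.185), and 0.81 resulted without the SK-MEL-28 library with siLINC00622 (0.00907, still called). CCNA1 was not called at 0.55 (adjusted p 0.0519, edgeR), at 1.56 against 1.16 FPKM, and the siNC libraries alone gave 0.47. It passed with DESeq2 size factors (0.57, adjusted p 0.0470), with no filter on low counts (0.56, 0.0478) and without the siLINC00622 library of SK-MEL-28 (1.19, 0.0185), all in edgeR. Without the siNC library of SK-MEL-28, the CCNA1 difference was -0.42. CCNE2 was not called at -0.14 (adjusted p 0.389, edgeR; -0.16 in the siNC libraries alone) and was called at -0.69 without the siNC library of SK-MEL-28 (adjusted p 0.0319, edgeR). CCNE1 was not called at -0.09 (adjusted p 0.498, edgeR).

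Beyond the set, CDKN1A, CDKN1C and CDK2 also differed between the lines. CDKN1A was lower in SK-MEL-28 by -4.48 on the log2 scale (adjusted p 1.78e-06, edgeR quasi-likelihood) and CDKN1C by -2.42 (adjusted p 2.83e-03, edgeR). CDK2 was higher there by 1.90 (adjusted p 5.50e-05, edgeR), and CCNA2 was not called at -0.21 (adjusted p 0.159, edgeR). A375 thus had more of CDKN1A and CDKN1C, and SK-MEL-28 more of CDKN1B, among the CIP/KIP inhibitors.

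The genes beside CDKN2A in the annotated order were examined because its level set the lines apart. CDKN2B, the next listed gene on one side, which encodes the INK4 inhibitor p15, was higher in SK-MEL-28 by 6.94 on the log2 scale (adjusted p 3.03e-06, edgeR quasi-likelihood), with 599 and 626 counts against 7 and 4. MTAP, the third on the other side, went the opposite way, with 1860 and 1325 counts in SK-MEL-28, against 6536 and 5582 in A375, a log2 difference of -1.77 (adjusted p 9.02e-06, edgeR). DMRTA1, further along, had 125 and 118 counts in SK-MEL-28, against 173 and 198 in A375 and was not called (adjusted p 0.0700, edgeR). Between MTAP and CDKN2A the table lists TUBB8P1, with 22 and 35 counts in SK-MEL-28, against 23 and 42 in A375 (log2 difference 0.00, adjusted p 0.995, edgeR), and ENSG00000265194, with 65 and 84 against 200 and 229 (-1.36, adjusted p 0.00101, edgeR). ENSG00000236921, between CDKN2B and DMRTA1, had 34 and 29 against 48 and 78 counts (-0.80, adjusted p 0.0411, edgeR). Both of the latter were thus lower in SK-MEL-28, where CDKN2A and CDKN2B were higher. CDKN2A and CDKN2B are similar in sequence, and how reads matching both were counted is not given in the sources used here.

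**Figure D4:**
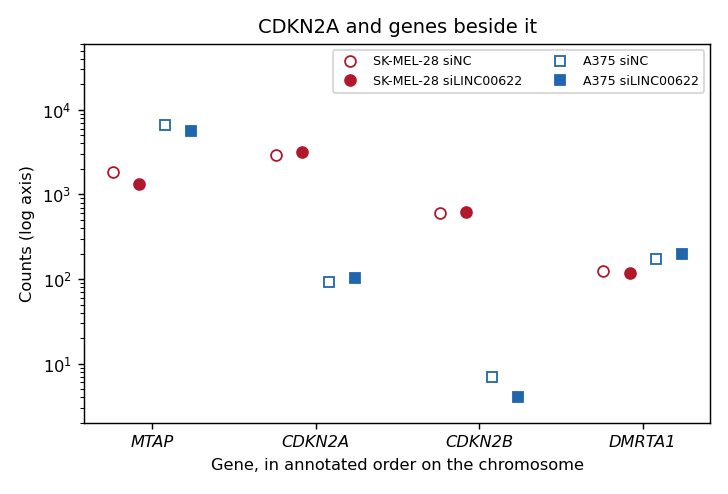
Counts (log axis) of CDKN2A, CDKN2B, MTAP and DMRTA1 in each library; red circles are SK-MEL-28, blue squares A375, open symbols siNC and filled symbols siLINC00622, with 1 library a symbol. CDKN2A and CDKN2B are high in SK-MEL-28 and low in A375, MTAP is the reverse, and DMRTA1 lies between 118 and 198 counts in all 4 libraries.

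Genes beside CCNA1 were not all lower with it. SPART, the second listed gene on one side, had 4568 and 3184 counts in SK-MEL-28, against 4424 and 4280 in A375, with log2 ratios of -0.55 and -0.26. RFXAP, the next listed gene on the other side, had 259 and 226 counts in SK-MEL-28, against 376 and 380 in A375, with log2 ratios of -0.23 and -0.19. SMAD9 had 577 and 296 counts in SK-MEL-28, a log2 ratio of -0.99, and 28 and 39 in A375, a ratio of 0.25. SOHLH2 had 2 counts in each library of SK-MEL-28 and 358 and 384 in A375, SPART-AS1 had 41, 60, 27 and 44 in the order of the lines and treatments, and SMAD9-IT1 had at most 9. None of the 6 neighbours was lower by over 1.5-fold in both lines. Of 14721 genes, 1.09% were, so the neighbours lie near the share of all genes. SOHLH2 and SMAD9-IT1 were under the minimum of 10 counts in SK-MEL-28 and could not pass.

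The genes whose pair of ratios lay nearest to that of CCNA1, by Euclidean distance among the 11951 genes that reached 50 counts in each line, were ABHD5, KRR1, SSX2, RNF138 and FAM217B. ABHD5, a coactivator of triglyceride breakdown, had 740 and 273 counts in SK-MEL-28, against 944 and 439 in A375, log2 ratios of -1.46 and -1.31. KRR1, a ribosome assembly factor, had 2306 and 703 counts and 2672 and 1152 counts, ratios of -1.74 and -1.42. SSX2, a cancer-testis antigen, had 214 and 70 and then 163 and 82 counts, ratios of -1.62 and -1.18. The distances of the 5 genes were between 0.15 and 0.25, over 2 ratios each, and they were chosen for this likeness.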

How the data were processed

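RNA-seq of 4 libraries, 1 for each combination of SK-MEL-28 or A375 with siNC or siLINC00622, was grouped by the labels, which give no batch. By the study's methods, the reads were paired-end and the RNA poly(A)-selected. The submitters' processing notes name HISAT2, HISAT, TopHat2, Bowtie2 and the build hg19; versions, the counting and whether it used strand are not given in the sources used here. The authors deposited raw counts as 1 whole number for each gene and library. They also deposited CPM, which divides the count by the library total and served here to recover that total. The deposited FPKM adds a scaling by gene length, and was used as the level of a gene. The table's 4 TPM columns were not used. Intervals cover counting error only, since they come from 1 library per condition. Reads carry no molecular identifiers, so copies of the same molecule could not be told apart.

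Counts were scaled by TMM in edgeR 4.0.16 (R 4.3.3). Log2 ratios used a prior count of 2, and a gene was past the fold at over 1.5-fold if either library of the line reached 10 counts. The 95% intervals are Clopper-Pearson intervals, and those of a difference between lines use the delta method. The lines, and the treatments paired by line, were tested by edgeR's quasi-likelihood test after filterByExpr, with Benjamini-Hochberg adjustment over all genes and a threshold of 0.05. The genes of the set were not tested for the knockdown. The genes and lists were chosen with earlier results of these data known. Named genes are the set, LINC00622 and RRAGD, genes of the lists past 1.5-fold the same way in both lines, the 3 with the largest log2 ratio in each line, 8 cell cycle genes whatever their values, the 5 genes nearest to CCNA1 by both ratios, and the 3 listed neighbours on each side of CCNA1 and CDKN2A (GENCODE 29, which matched 17332 identifiers). The line test was tested on simulated data of 16117 genes, where it recovered 92 of 100 genes changed 2-fold and 100 of 100 changed 4-fold and called 4 unchanged ones. All genes were simulated with the same spread, with no treatment effect and few changed genes. The simulation therefore does not show how the test performs on these libraries. Alternatives were library totals, DESeq2 1.42.0 size factors and Wald test, FPKM with pseudocounts of 1 and 0.1, a prior count of 0.5, other filters and folds, dropped terms and leaving out each library. Tables and sequence matches were made in Python 3.11.15.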

Additional observations from a re-analysis of the deposited data

Results flagged for a closer look

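In 11 listed genes outside the set the siLINC00622 library was lower in one line and higher in the other, each beyond its counting interval, and 0 of the 9 genes of the set were among them. CCNA2, CCNJ and CKS2, also opposite in sign but with an interval bound that rounds to 0.00, were not counted. The share over all genes was not computed, so neither count can be read against a background. At high counts, small shifts pass such an interval. CDKN1C had the widest gap, with a log2 ratio of -1.45 (-2.07 to -0.96) in SK-MEL-28 cells, against 0.56 (0.36 to 0.76) in A375, so that the first minus the second was -2.01 (interval -2.58 to -1.45). S100B, a melanocyte marker, followed with a difference of -1.19 (interval -1.40 to -0.99). CCNG2, cyclin G2, differed by -0.74, CDK5 by -0.51, RBL2 by -0.37 and AMBRA1 by -0.34, all lower in SK-MEL-28 and higher in A375. The opposite held for MYBL2 at 0.63, CDK2 at 0.62 (interval 0.53 to 0.70), CDC25A at 0.46, CDC25B at 0.42 and ORC1 at 0.41. With 1 library per line and treatment, no difference was tested against the spread between cultures. The genes other than CDKN1C, CDK2 and CCNA2 were named after their values were seen.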

How the results depend on the processing

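The knockdown ratios of the 9 listed genes kept their value within the counting interval in 87 of 90 recomputations. The exceptions used deposited FPKM with a pseudocount of 1, where CCNA1 had -0.94 for SK-MEL-28 and -0.72 for A375, and CCNE2 had -0.79 for SK-MEL-28. On that scale CCNE2 in A375 was at -0.58, which left 2 genes of the set past 1.5-fold there. With a fold of 2 in place of 1.5, 1 gene of the set, CCNA1, was lower in A375. In the comparison of the lines, the counts of genes called stayed within 1.5 times under all 9 alternatives in each direction. For single genes there, CCND1 turned to -0.33 without the siNC library of SK-MEL-28, to -0.03 without the siLINC00622 library of A375 and to 0.86 without the siNC library of A375, with 0.81 without the siLINC00622 library of SK-MEL-28, and lost its call with no treatment term (0.35, adjusted p 0.491 in edgeR). The test paired by line was not stable. It called 1 gene higher and 0 lower with DESeq2 size factors in edgeR, 57 and 64 with no filter on low counts, 0 and 0 with no line term, and 144 and 158 with the DESeq2 Wald test. Leaving out each library in turn, an alternative chosen after seeing the data, used a fit without the line term on 3 libraries. Such fits, like the one with no line term, leave the difference between the lines in the spread, so they cannot judge the calls. At an unadjusted p under 0.05, edgeR had 2355 genes with DESeq2 size factors and 28 with no line term. With 1 library per condition, cultures could not be compared, and genes near 100 counts or fewer, such as CDKN2A in A375, have wide counting intervals.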
